A study of Mus musculus with 4 samples.

Results

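Fatty acid desaturases and elongases were examined as 10 genes in sorted mouse bone marrow stem and progenitor cells: the stearoyl-CoA desaturases Scd1, Scd2 and Scd3, the polyunsaturated fatty acid desaturases Fads1, Fads2 and the related Fads3, and the elongases Elovl1, Elovl5, Elovl6 and Elovl7. They were chosen by name, as enzymes that make the unsaturated fatty acids which lipoxygenases oxidise, with earlier results of these data known. All 10 were measured, among 18193 genes tested, with no filter on dim genes. The members were covered by 30 probe sets that the platform annotation assigns to 1 gene each, and the value of a gene is that of its probe set with the highest mean. Expression was measured on 4 Affymetrix arrays, 2 labelled WT and 2 labelled Alox15-/-, where Alox15, the gene that their genotype label says is deleted, encodes an arachidonate lipoxygenase. Both groups came from C57BL/6 (B6) mice aged 8 weeks, with cells sorted as lineage-negative, c-Kit+ and Sca-1+, a gate that holds multipotent progenitors as well as stem cells. Neither treatment nor the extent of the deletion is stated in the labels. The replicates are called biological without naming animals or pools, so a p-value reflects variation among the 4 samples only, part of which may be technical. The design asked how the expression of these cells differs between the genotypes.

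Long-chain fatty acids are made saturated, and desaturases then place double bonds in them while elongases lengthen the chain in the endoplasmic reticulum. Scd enzymes convert saturated acyl-CoAs into monounsaturated ones, whereas Fads2 and Fads1 act in turn, with an elongation by Elovl5 between them, to turn the essential fatty acids of the diet into arachidonic acid and its relatives. Arachidonic acid held in phospholipids is the substrate that lipoxygenases and cyclooxygenases oxidise once it is released. Many of these genes are known targets of the lipid-responsive transcription factor encoded by Srebf1.

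The arrays went against their label at Alox15. Its probe set read 4.63 and 4.35 on the WT arrays and 10.68 and 10.75 on those labelled Alox15-/- (log2 scale, as are all values below unless stated). Taking the highest of 27 bacterial control probe sets as the background, 4.95 to 5.17 on the 4 arrays, the level labelled Alox15-/- exceeded WT at least 53.5-fold (limma adjusted p = 0.00131; 0.171 to 0.326 without any 1 array and 0.718 without variance moderation). Where the probe set lies relative to the deletion is unknown here, so it may say nothing about the deletion. Whether the group labels were exchanged was not tested, and an exchange would reverse every direction below, each of which is that of the arrays as labelled. Of the gate's markers, 6 of 8 were named on the array and 0 of these lay below the background on all arrays. Kit read 10.63 and 10.48 in WT and 10.34 and 10.23 on the arrays labelled Alox15-/-, and Cd34 read 11.50 to 11.62 with overlapping groups. On the arrays labelled Alox15-/- 2 of the 6, Cd48 and Slamf1, were higher without overlap (21.4% of all genes). Kit and Procr, 2 of the 6, were lower without overlap (17.1% of all genes). All 6 measured mature neutrophil markers, of which Mmp8 lay below the background on every array, had higher values on both arrays labelled Alox15-/- than on either WT array, as did 21.4% of all genes. Their summed level was 9.20 and 10.38 in WT and 11.36 and 10.97 on the arrays labelled Alox15-/-. The signal gap between the ends of the Gapdh transcript, an index of RNA integrity and labelling, was 2.38 ± 0.01 in WT and 2.15 ± 0.02 on the arrays labelled Alox15-/- (SD, n = 2 each), while that of Actb differed by 0.0056, and the part of either in the values below was not tested.

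None of the 10 desaturase and elongase genes passed the limma threshold, an adjusted p of 0.05 over all genes. The threshold was passed by 1 of all 18193 genes, Alox15 itself, which is 0.0055% of them. At an unadjusted limma p under 0.05 there were 2 members, Scd3 and Fads2, against 7.77% of all genes, and with a mean-dependent prior variance 0 members passed, against 0.121% of all genes. The groups did not overlap for 4 of the 10 members, higher on the arrays labelled Alox15-/- for Scd3, Fads1 and Fads2 (21.4% of all genes) and lower for Scd2 (17.1% of all genes). In either direction 38.5% of all genes did so, which is near the members' share of 40.0%. The median difference, arrays labelled Alox15-/- minus WT, was 0.09 over the members and 0.02 over all genes, with 5 members above 0 and 5 below. The median size of the difference was 0.23 for the members, and the median gap between the replicates of a group was 0.20 in WT and 0.22 on the arrays labelled Alox15-/-. Over all genes the size was 0.14 and the gaps were 0.19 and 0.15.

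**Figure D1:**
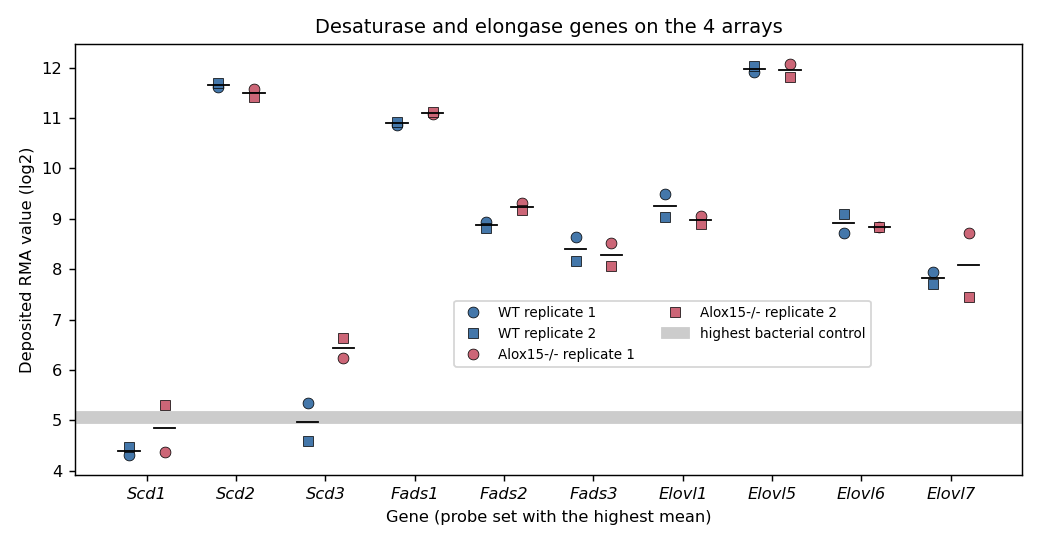
Deposited log2 value (vertical axis) of each of the 10 genes on the 4 arrays, with circles for replicate 1 and squares for replicate 2 of each group, short lines for group means and a grey band for the highest bacterial control, 4.95 to 5.17. Scd3 shows the widest gap between the groups, and Scd1 lies below the band except on Alox15-/- replicate 2, where it lies above. The heights of different genes are not comparable because each has its own probes.

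Scd2, the family member best known from brain and from early development, read 11.63 and 11.69 in WT and 11.59 and 11.42 on the arrays labelled Alox15-/-. All 4 values were far above the bacterial controls, and the arrays labelled Alox15-/- lay just below both WT arrays. The difference was -0.16 ± 0.14 (SE, n = 2 each; 95% interval -0.50 to 0.19; limma adjusted p = 0.814), and without 1 array it ran from -0.24 to -0.07. The 2 other Scd2 probe sets gave -0.15 and 0.08, both with overlapping groups.

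Scd1, the main form in liver and fat, read 4.31 and 4.47 in WT and 4.37 and 5.31 on the arrays labelled Alox15-/-. It exceeded the bacterial control of its own array only on Alox15-/- replicate 2, so no fold change is given. The fitted difference was 0.45 ± 0.32 (SE, n = 2 each; 95% interval -0.35 to 1.25; limma adjusted p = 0.767), and without that array it was -0.02. Its other probe set lay below the control on every array, at 2.37 to 3.19. Of the adipocyte and stromal markers, 6 of 8 were measured, with a summed level of 7.84 and 8.00 in WT and 8.11 and 8.08 on the arrays labelled Alox15-/-. Adipoq and Cidec were below the control on all 4 arrays, whereas Fabp4 read 5.42 and 6.15 in WT and 6.41 and 6.48 on the arrays labelled Alox15-/-. Of the 6 markers, 4 had differences above 0. Without overlap 1, Fabp4, was higher and 0 were lower, against 21.4% and 17.1% of all genes. Their part in the Scd1 values was not tested.

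Scd3, a paralog described mainly in skin and the Harderian gland, had the largest difference of the 10 genes. Its probe set read 5.34 and 4.59 in WT and 6.24 and 6.63 on the arrays labelled Alox15-/-. The groups did not overlap. In WT, 1 of 2 arrays was above the background, and the WT mean, 4.97, was at the mean of the WT arrays' highest control, 4.97, so no fold change is given. The difference as measured was 1.47 ± 0.29 (SE, n = 2 each), with a 95% interval from 0.74 to 2.19 and limma adjusted p = 0.486 (unadjusted p = 0.00309). By unadjusted p it ranked 114 of 18193 genes. Over the other settings adjusted p ran from 0.203 to 0.952, and without 1 array the difference ran from 1.09 to 1.84. The other Scd3 probe set read 4.01 and 4.40 in WT and 4.43 and 4.47 on the arrays labelled Alox15-/-, below the background throughout, with a difference of 0.25. The mean of both probe sets gave 0.86. Scd1, Scd2 and Scd3 are close paralogs, and how far their probes share signal was not tested here.

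Like Scd3, the mature neutrophil markers had higher values on both arrays labelled Alox15-/-, as given above. On WT replicate 1 Scd3 and the neutrophil marker Mmp8 were higher than on WT replicate 2, while the other 5 neutrophil markers were lower. Macrophage and monocyte markers had a summed level of 9.59 and 9.69 in WT and 10.48 and 9.89 on the arrays labelled Alox15-/-. Of the 6 measured genes 4 had differences above 0, and Adgre1 lay below the background on all arrays. Without overlap 2 were higher and 1, Cd68, was lower, against 21.4% and 17.1% of all genes. Within the sum C1qb read 4.92 and 7.55 in WT and 9.53 and 6.23 on the arrays labelled Alox15-/-, with overlapping groups. The part of the neutrophil and macrophage markers in the Scd3 result was not tested. In bulk RNA fewer cells of a type and less RNA per cell cannot be told apart.

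The genes whose 4 values, centred on their own mean, lay closest to those of Scd3 were Dock3, Rab44, Prom1, Havcr2 and Bcas1, in that order, with root mean square distances of 0.20 to 0.26. Bcas1 had a difference of 1.28, and Rab44 read 8.74 and 8.00 against 9.41 and 9.50. Prom1 was below the background on all 4 arrays. This is a description over 4 arrays, picked from all genes by likeness.

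The sequence upstream of Scd3 is shown because this gene had the largest difference, beside those of its fellow desaturases Fads2 and Fads3, which neighbour each other, and of Elovl5, the elongase that acts between Fads2 and Fads1. Each run holds the 250 bases before the annotated start, 5′ to 3′ on the gene's strand, from RefSeq on GRCm38.p6. Capitals mark the letters of 3 motifs: the CCAAT box (CCAAT), the GC box (GGGCGG) and the E-box (CACGTG), searched on both strands.
Scd3, chr19:44203038-44203287, plus strand: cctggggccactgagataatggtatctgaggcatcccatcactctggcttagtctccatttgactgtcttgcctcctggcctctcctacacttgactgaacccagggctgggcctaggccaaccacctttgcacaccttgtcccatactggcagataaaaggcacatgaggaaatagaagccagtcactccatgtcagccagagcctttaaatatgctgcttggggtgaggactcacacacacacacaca
Fads2, chr19:10101504-10101753, minus strand: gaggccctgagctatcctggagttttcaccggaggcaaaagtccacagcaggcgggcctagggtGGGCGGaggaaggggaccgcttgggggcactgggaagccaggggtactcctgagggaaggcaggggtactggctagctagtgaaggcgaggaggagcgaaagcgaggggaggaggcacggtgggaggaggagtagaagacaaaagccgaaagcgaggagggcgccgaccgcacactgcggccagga
Fads3, chr19:10041298-10041547, plus strand: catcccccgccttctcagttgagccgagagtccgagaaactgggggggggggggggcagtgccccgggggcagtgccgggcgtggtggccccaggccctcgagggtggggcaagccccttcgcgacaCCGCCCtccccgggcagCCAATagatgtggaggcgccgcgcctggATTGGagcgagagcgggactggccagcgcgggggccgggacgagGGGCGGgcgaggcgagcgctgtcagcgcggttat
Elovl5, chr9:77917115-77917364, plus strand: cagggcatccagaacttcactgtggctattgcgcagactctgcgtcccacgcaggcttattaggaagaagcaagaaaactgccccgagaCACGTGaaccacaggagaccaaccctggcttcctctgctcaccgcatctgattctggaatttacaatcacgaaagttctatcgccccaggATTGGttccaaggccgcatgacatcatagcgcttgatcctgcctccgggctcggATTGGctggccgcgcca
A TATA box (TATAAA) was searched as well and was in none of these runs. RefSeq windows were matched for 7 of the 10 members, 8 windows in all, as Elovl1 had 2, both with a GC box. Of these 8, 3 held a CCAAT box, 5 a GC box and 1, that of Elovl5, an E-box, against 33.8%, 32.7% and 6.02% of 32851 windows of the same length. The TATA box was in 12.4% of all windows and in 0 of the 8. The CCAAT letters overlapped a GC box in 1 window, of Elovl1, which is not printed. A match is a description of letters, and no match says only that these letters are not in this window. Fads3 held 2 CCAAT boxes, 106 and 78 bases before the start, and Elovl5 held 2, 71 and 17 bases before it. Fads2 held 1 GC box, 186 bases before the start, and Scd3 held none of the motifs.

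Fads2 and Fads1, the desaturases of the polyunsaturated pathway, had slightly higher values on the arrays labelled Alox15-/- at the probe sets used, and neither difference passed the threshold. Fads3, Fads2 and Fads1 are consecutive protein-coding genes on chromosome 19, which also carries the Scd genes. Fads2, which performs the first and rate-limiting desaturation of the essential fatty acids, read 8.94 and 8.82 in WT and 9.31 and 9.17 on the arrays labelled Alox15-/-. Both arrays of the second group were above both WT arrays. The difference was 0.36 ± 0.14 (SE, n = 2 each), 1.28-fold, with a 95% interval from 0.01 to 0.70 and limma adjusted p = 0.639 (unadjusted p = 0.0461). A second probe set of Fads2 read 8.48 and 8.61 in WT and 8.96 and 8.93 on the arrays labelled Alox15-/-, a difference of 0.40, again without overlap. The third gave 0.14 with overlapping groups, so all 3 differences were above 0. Without 1 array the main difference ran from 0.29 to 0.43, and adjusted p over the other settings from 0.519 to 0.952.

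Fads1, which performs the later desaturation that yields arachidonic acid, read 10.87 and 10.93 in WT and 11.08 and 11.11 on the arrays labelled Alox15-/-. The replicates lay close together, 0.06 and 0.03 apart, and the groups did not overlap. The difference was 0.20 ± 0.13 (SE, n = 2 each), 1.15-fold, with a 95% interval from -0.12 to 0.52 and limma adjusted p = 0.748. A second Fads1 probe set read 8.13 and 7.83 in WT and 7.17 and 8.03 on the arrays labelled Alox15-/-, a difference of -0.38 in the opposite direction. The mean of both probe sets was -0.09.

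Fads3, a related enzyme that acts on sphingoid bases, had overlapping groups. It read 8.64 and 8.16 in WT and 8.52 and 8.06 on the arrays labelled Alox15-/-. The gap between replicates, 0.47 and 0.46, exceeded the difference between groups, -0.11 ± 0.24 (SE, n = 2 each; 95% interval -0.71 to 0.49; limma adjusted p = 0.934). Its other probe sets gave 0.26, without overlap, and -0.30, the latter below the background on all arrays.

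At the probe sets used, no elongase differed between groups by more than its replicates differed within at least 1 group. Elovl5, the elongase of polyunsaturated fatty acids, read 11.92 and 12.03 in WT and 12.08 and 11.82 on the arrays labelled Alox15-/-. Its difference, -0.02 ± 0.15 (SE, n = 2 each; limma adjusted p = 0.979), had a 95% interval from -0.41 to 0.36, and its other probe set gave 0.08. The groups overlapped at both probe sets.

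Elovl6, which lengthens palmitate to stearate and so supplies the Scd enzymes, read 8.72 and 9.11 in WT and 8.84 and 8.85 on the arrays labelled Alox15-/-. The difference was -0.07 ± 0.17 (SE, n = 2 each; 95% interval -0.51 to 0.37; limma adjusted p = 0.941), inside the WT gap of 0.39. One of its other probe sets did not overlap between groups, at 8.31 and 7.86 in WT and 7.56 and 7.81 on the arrays labelled Alox15-/-, a difference of -0.40, and the other gave -0.01. All 3 Elovl6 differences were below 0.

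Elovl1, which makes very long saturated and monounsaturated chains for sphingolipids, read 9.49 and 9.04 in WT and 9.07 and 8.90 on the arrays labelled Alox15-/-. WT replicate 2 lay between the arrays of the other group. The difference was -0.28 ± 0.19 (SE, n = 2 each; 95% interval -0.76 to 0.21; limma adjusted p = 0.765), and it ran from -0.50 without WT replicate 2 to -0.05 without WT replicate 1. Its 3 other probe sets gave -0.28, -0.20 and 0.07, all with overlapping groups.

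Elovl7, an elongase of long saturated chains, was the most variable member. It read 7.95 and 7.71 in WT and 8.73 and 7.44 on the arrays labelled Alox15-/-, so that the 2 arrays of the second group were 1.29 apart and enclosed both WT values. The difference was 0.25 ± 0.42 (SE, n = 2 each; 95% interval -0.80 to 1.31; limma adjusted p = 0.909), and it was -0.39 without Alox15-/- replicate 1. The 5 other probe sets gave -0.14 to 0.12, all with overlapping groups.

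**Figure D2:**
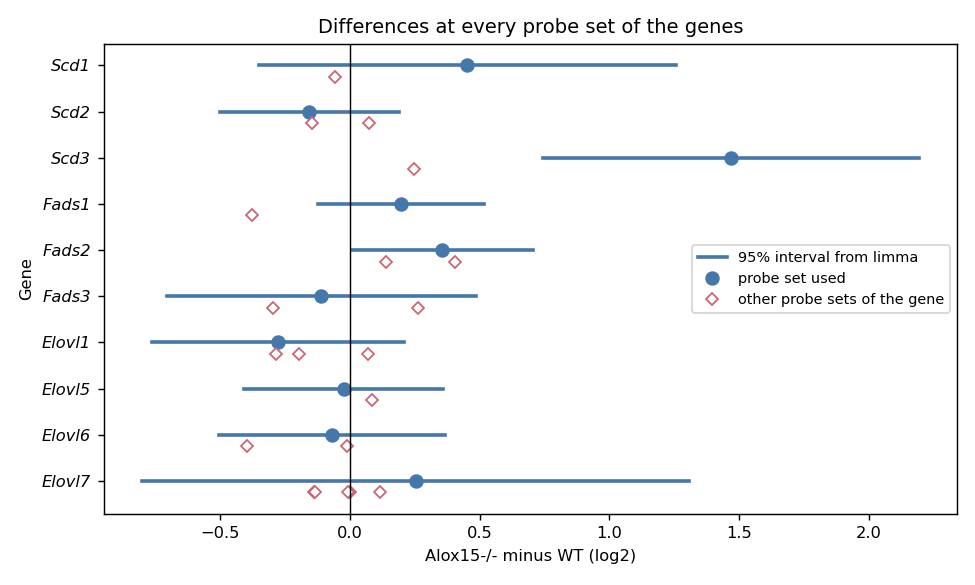
Difference on the log2 scale, arrays labelled Alox15-/- minus WT, for each gene, with filled circles for the probe set used, bars for its 95% interval from limma and open diamonds for the other probe sets. The interval excludes 0 for Scd3 and Fads2 alone, without adjustment for the number of genes, and Scd3's other probe set lies at 0.25.

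Probe sets of one gene often disagreed. All 10 members had several probe sets, and 7 had differences of both signs, against 56.2% of the 9010 genes with several probe sets. Scd3 and Fads2 were above 0 and Elovl6 below 0 at each of their probe sets. Over the 30 probe sets, 13 differences were above 0 and 17 below, 6 were higher and 2 lower without overlap, and 4 lay below the background on all arrays. The groups did not overlap, in either direction, at 8 of the 30 probe sets, against 38.4% of all probe sets with 1 gene.

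Beyond the members, 84 genes of fatty acid metabolism in 7 lists were examined, of which 78 were measured. None passed the limma threshold over all genes. At an unadjusted limma p under 0.05 there were 9, 6 higher and 3 lower, against 7.77% of all genes. The groups did not overlap for 41 of the 78 (52.6%, against 38.5% of all genes), 21 higher and 20 lower. Over all genes 21.4% were higher and 17.1% lower without overlap, shares that apply to each list below, and leaving out 1 array changed the sign of the difference for 32 of the 78.

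Of the partners in the elongation cycle and the other desaturases and elongases, 12 of 13 were measured, 4 were higher and 2 lower without overlap (6 of 12, against 38.5% of all genes), and the median difference was 0.12. Hsd17b12, the ketoacyl reductase of the cycle, gave 0.10, Tecr, its enoyl reductase, 0.01, and Hacd2, a dehydratase, 0.30 with -0.73 at its other probe set. The sphingolipid desaturase Degs1 read 9.86 and 9.85 in WT and 9.90 and 10.10 on the arrays labelled Alox15-/-, a difference of 0.14. Its relative Degs2 had the largest positive difference of this list, 0.45 (limma adjusted p = 0.610), and the dehydratase Hacd4 the largest negative one, -0.38. Degs2 had 1 probe set, and its WT values, 5.375 and 5.415, were not far above the background of those arrays, 4.995 and 4.9475. Elovl4, with Elovl2 and Elovl3, lay below the background on all arrays, and Elovl4 gave -0.27.

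Desaturases draw electrons from cytochrome b5 and its reductases. Of these 6 genes, 2 were higher and 0 lower without overlap (33.3%, against 38.5% of all genes), with a median of 0.06. Cyb5a, the microsomal cytochrome, gave -0.09, the largest negative difference of the list, Cyb5r3, the main reductase, 0.04, and Cyb5r1 the largest positive one, 0.40 (limma adjusted p = 0.617).

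The genes that make saturated fatty acids had a median difference of -0.11, with 1 higher and 3 lower of 10 without overlap (40.0%, against 38.5% of all genes). Acss2, which makes acetyl-CoA from acetate, read 8.56 and 8.78 in WT and 8.09 and 8.16 on the arrays labelled Alox15-/-, and its other probe sets gave -0.60 and -0.38 beside the main -0.55 (limma adjusted p = 0.575). Fasn, the fatty acid synthase, read 8.32 and 8.29 in WT and 8.03 and 8.11 on the arrays labelled Alox15-/-, a difference of -0.23 without overlap. Acly, which makes cytosolic acetyl-CoA from citrate, gave -0.09, and Acaca, the acetyl-CoA carboxylase, -0.08. Thrsp, a lipogenic accessory gene, had the largest positive difference, 0.29.

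Among 11 measured regulators, 1 was higher and 5 were lower without overlap, against 21.4% and 17.1% of all genes, with a median of -0.01. Srebf1 read 8.01 and 7.86 in WT and 7.70 and 6.97 on the arrays labelled Alox15-/-. The difference was the largest negative one of the list, -0.60 ± 0.26 (SE, n = 2 each; limma adjusted p = 0.676), and ran from -0.96 to -0.23 without 1 array. Insig1, itself a sterol-responsive gene that retains the Srebf proteins in the endoplasmic reticulum, read 10.36 and 10.11 in WT and 9.89 and 9.62 on the arrays labelled Alox15-/-, a difference of -0.48 (limma adjusted p = 0.630). Nr1h3, the oxysterol receptor that activates Srebf1 transcription, gave -0.34, also without overlap. Scap, the escort of the Srebf proteins, gave 0.12 with -0.39 at its other probe set. Mlx, the partner of the carbohydrate-responsive factor Mlxipl, had the largest positive difference, 0.63, and 0.64 at its other probe set, while Mlxipl lay below the background on all arrays.

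For acyl-CoA use and phospholipid remodelling, 17 of 18 genes were measured, 1 was higher and 8 were lower without overlap, against 21.4% and 17.1% of all genes, and the median was -0.05. Acsl4, which activates arachidonic acid for storage in phospholipids, gave -0.17 and had values of 0.12 and 0.13 at its other probe sets. Lpcat3, which places polyunsaturated chains in lysophospholipids, gave 0.32 with overlapping groups. Lpin1, a phosphatidate phosphatase, had the largest negative difference, -0.43, with -0.47 at its other probe set, and Mboat2, an acyltransferase, the largest positive one, 0.44, with -0.40 at its other probe set.

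For uptake and binding, 9 of 10 genes were measured, 4 were higher and 1 lower without overlap, against 21.4% and 17.1% of all genes, and the median was 0.11. Lpl, lipoprotein lipase, had the largest positive difference, 0.97, which rested on WT replicate 1. It read 3.97 and 5.94 in WT and 6.10 and 5.76 on the arrays labelled Alox15-/-, and the difference was -0.01 without WT replicate 1. The value on WT replicate 1 lay below the background of that array, 4.995, and the other Lpl probe set gave 0.02. Slc27a3, an acyl-CoA synthetase of the fatty acid transporter family, read 5.06 and 5.12 in WT and 6.03 and 5.73 on the arrays labelled Alox15-/-, a difference of 0.79 (limma adjusted p = 0.489). It had 1 probe set, and its WT values lay just above the background of those arrays, 4.995 and 4.9475. Fabp5, a fatty acid binding protein, gave 0.06 and Cd36, a fatty acid receptor below the background on all arrays, -0.25.

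For fatty acid oxidation, which includes the peroxisomal steps that finish docosahexaenoic acid, 13 of 15 genes were measured, 8 were higher and 1 lower without overlap, against 21.4% and 17.1% of all genes, and the median was 0.12. Acadvl, the very long chain acyl-CoA dehydrogenase, had the largest positive difference, 0.24, without overlap. Decr2, the peroxisomal dienoyl-CoA reductase, had the largest negative one, -0.26, with overlapping groups. Cpt1a, which imports acyl groups into mitochondria, gave 0.19 at the probe set used, without overlap, and 0.39 and 0.44 at its others. Acadl gave 0.10 at the probe set used, with overlapping groups, and 0.89 at a probe set below the background on all arrays. Hsd17b4, the bifunctional peroxisomal enzyme, read 10.32 and 10.30 in WT and 10.48 and 10.57 on the arrays labelled Alox15-/-, a difference of 0.22 (limma adjusted p = 0.729).

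**Figure D3:**
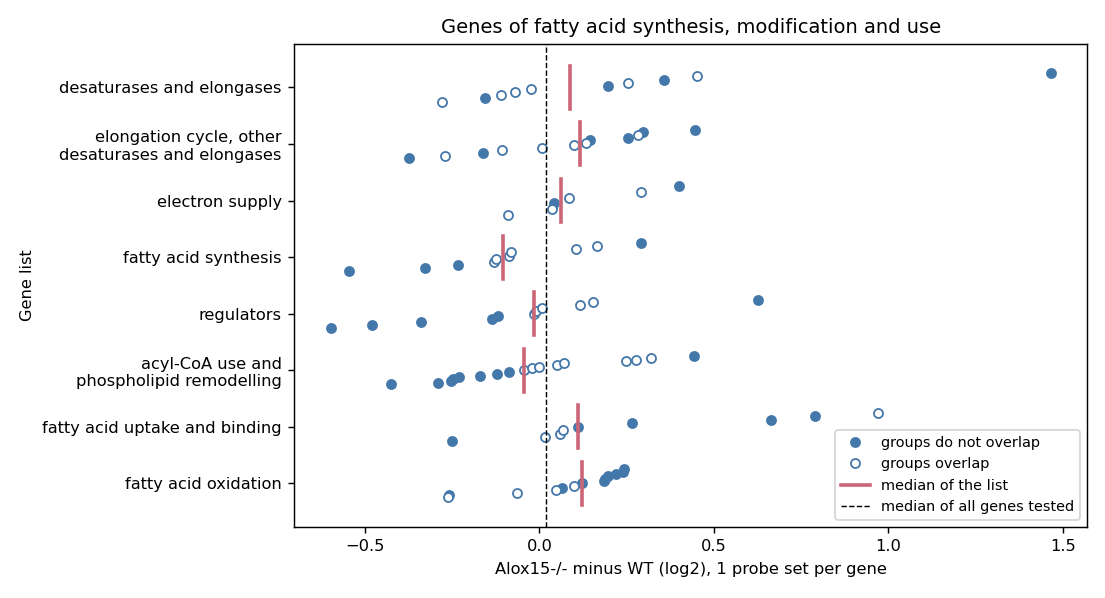
Difference on the log2 scale, arrays labelled Alox15-/- minus WT, for each measured gene of the desaturases and elongases and of the 7 related lists (rows), filled where the groups do not overlap, with the median of each list in red and that of all genes, 0.02, dashed. Scd3 at 1.47 lies farthest from 0, and the list medians run from -0.11 to 0.12.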

How the data were processed

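The deposited table holds log2 values of 45101 probe sets on 4 arrays, made by the authors with Affymetrix Expression Console 1.1 and RMA, per the submitters' processing notes. RMA subtracts background, normalizes between arrays and summarises each probe set, which compresses low signals. Each array takes 1195 to 1228 distinct values, so small differences are coarse. The labels' protocols describe a labelling kit for sense targets over whole transcripts, while the probe set identifiers are those of an older design, and which describes the hybridised material is not settled. The number of arrays limits the precision.

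The platform's annotation gave the gene names, 34945 probe sets with 1 gene symbol, 932 with several and 9211 with none. Only those with 1 symbol were used, the one with the highest mean per gene. Groups came from the sample titles. limma 3.58.1 in R 4.3.3 (lmFit, eBayes, two-sided, no block) was fitted to all 18193 genes with Benjamini-Hochberg adjustment, and the code was tested on simulated data. Alternatives changed normalization, the filter on dim genes, variance moderation, probe sets, the replicate block and the arrays used. Members and gene lists were chosen with earlier results of these data known. Named were all members, Alox15, 18 pathway genes picked by role (1 is not reported here), the largest positive and negative difference in each list, and the 5 genes most like Scd3. Elovl2, Elovl3, Mlxipl, Slc27a3, Hsd17b4, Cpt1a, Acadl and single cell type markers were named after their values were seen. Promoter sequences are from RefSeq, GRCm38.p6. Figures were drawn with matplotlib 3.10.9.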

Additional observations from a re-analysis of the deposited data

How the results depend on the processing

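The number of desaturase and elongase genes past the limma threshold was 0 in all 13 other settings. Over all genes tested the count was 22 with a mean-dependent prior variance, 2 with every probe set as its own row, 0 without variance moderation and 0 without any 1 array. The lone array left in such a fit is assumed to vary like the other group. The members' median difference, 0.09, was -0.024 without the 30 percent of genes with the lowest mean, which left out Scd1, and -0.017 with the mean of all probe sets of a gene, and ran from -0.11 to 0.15 without 1 array. Of 129 values for single members under other settings, 120 kept their direction and 9 reversed, and Scd2, Scd3, Fads2 and Elovl1 never did. Many of the 120 could not reverse. The filters on dim genes, the variance settings and the replicate block leave a member's difference as it was. So does every probe set as its own row, where the probe set used was read. All 9 reversals came without 1 array or with the mean of all probe sets. With the mean of all probe sets Fads1 was -0.091 and Elovl5 0.03. Without 1 array Scd1 ran from -0.02 to 0.93, Fads3 from -0.35 to 0.13, Elovl5 from -0.16 to 0.11, Elovl6 from -0.27 to 0.13 and Elovl7 from -0.39 to 0.90. Scd1 reversed without Alox15-/- replicate 2, Fads3 without WT replicate 1 (0.13) or Alox15-/- replicate 2 (0.12), Elovl5 without WT replicate 2 (0.03) or Alox15-/- replicate 2 (0.11), Elovl6 without WT replicate 2, and Elovl7 without Alox15-/- replicate 1. The cause was not tested. With the replicate number as a block 1 gene passed over all genes and 0 members did, the members' median was 0.09, and Scd3 had limma adjusted p = 0.412. Deviations of same-numbered arrays correlated at -0.02 across genes, and nothing in the labels pairs them. The deposited values were already normalized, with the sorted values of the arrays at most 0.0325 apart, so normalizing again could change little. The median of all genes was 0.01875 as deposited, 0.0190625 after quantile normalization again and 0.02125 after median centring. Signal over background limits Scd1 and, in WT, Scd3.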
